A study of Mus musculus with 800 samples.

Results

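The cells described are embryonic mouse retinal ganglion cells (RGCs) with transcripts of Ppp1r17 or Pou3f1. They numbered 61 Tomato+ and 60 Tomato- cells, which is 23.2% and 54.1% of the RGCs found under each label, among 689 kept cells of 800 in all. A kept cell had 1000 genes or more detected and no more than 20% of its counts from mitochondrial genes. A kept cell entered the RGC gate with 5 or more counts of Pou4f1 or Pou4f2, transcription factor genes of RGCs, and fewer than 20 counts each of Fgf15 and Hes1, genes of retinal progenitors. The members were chosen by 5 or more counts of Ppp1r17 or of Pou3f1 in a gated cell. They are set against the gated cells with fewer than 5 counts of either gene, called the other RGCs here, within each sorted label. Because these 6 genes chose the cells, their values are a description, and the levels of all other genes carry the comparison.

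The cells came from C57BL/6 retinas of the Sert-Cre line at stage E15.5. They were labelled Tomato+ (400 cells) or Tomato- (400 cells). In Sert-Cre mice, Cre recombinase is driven from Slc6a4, the serotonin transporter gene, which embryonic RGCs with uncrossed axons express. Both labels share the driver, the strain and the stage. The Tomato reporter allele and the sort gate are not described in the labels, so Tomato- cells are known only by their label. The protocol names 30 retinas per dissociation with papain, and no animal is given for any cell. Each label was therefore treated as 1 sample, and no p-value was computed between cells.

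RGCs are the projection neurons of the retina, and their axons form the optic nerve and cross or stay on the same side at the optic chiasm. They leave the cell cycle before birth and then take up Pou4f and Isl factors while they extend an axon. Pou3f1 encodes a POU-domain transcription factor (also called Oct6 or SCIP) found in subsets of developing neurons. Ppp1r17 encodes a substrate of cGMP-dependent kinase that inhibits protein phosphatases when phosphorylated. In the GRCm38 (mm10) build, Ppp1r17 lies at chr6:56017497-56032689 on the plus strand and Pou3f1 at chr4:124656807-124660655 on the plus strand.

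The 61 Tomato+ members held between 76450 and 644293 counts per cell, with a median of 291184, against a median of 278161 in the other Tomato+ RGCs. The 60 Tomato- members held between 91662 and 689788 counts, with a median of 322178, against 325092 in the 51 other Tomato- RGCs. Median numbers of detected genes were 4585 and 4615.5 in Tomato+ and 4193 and 4268 in Tomato- members and other RGCs. Median depth was thus similar on the sides compared, while the other RGCs reached lower, down to 16504 counts in Tomato+ and 27773 in Tomato- cells. Over both labels, 11 other RGCs and 2 members held fewer than 94783 counts. Membership was set on counts not scaled for depth. Cell titles carry a number, 1 to 10 for Tomato+ and 11 to 20 for Tomato- cells, with 40 cells each, and what it stands for is not stated. Cells of title number 8 had a median of 148633 counts and a mitochondrial share of 10.3%, and those of number 10 a median of 127257 counts and 10.2%. The remaining Tomato+ title numbers lay apart from these, between 231991 and 362038 counts and between 5.42% and 6.48%. The standard deviation (SD) over title numbers is used below as the spread of a value within a label.

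Both defining genes had a long upper tail of counts, and Ppp1r17 had few cells just inside the threshold of 5 counts. Ppp1r17 reached 5 counts in 20 Tomato+ and 34 Tomato- gated cells, which is 7.60% and 30.6% of them. In each label, 1 gated cell had 5 to 9 counts of it and 13 had 1 to 4, and the highest count, in a Tomato- cell, was 390. Pou3f1 reached 5 counts in 47 Tomato+ (17.9%) and 43 Tomato- (38.7%) gated cells, with at most 62 counts in a Tomato+ cell. Here 12 Tomato+ and 4 Tomato- cells lay just inside the threshold (5 to 9 counts) and 34 and 15 just outside it (1 to 4 counts). The Pou3f1 boundary was thus more thickly populated than that of Ppp1r17, mainly in Tomato+ cells. Summed over members and scaled to the total counts (CPM), Ppp1r17 stood at 66.2 CPM in Tomato+ members, against 202.2 CPM in Tomato- members, and Pou3f1 at 58.8 and 122.6 CPM.

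**Figure D1:**
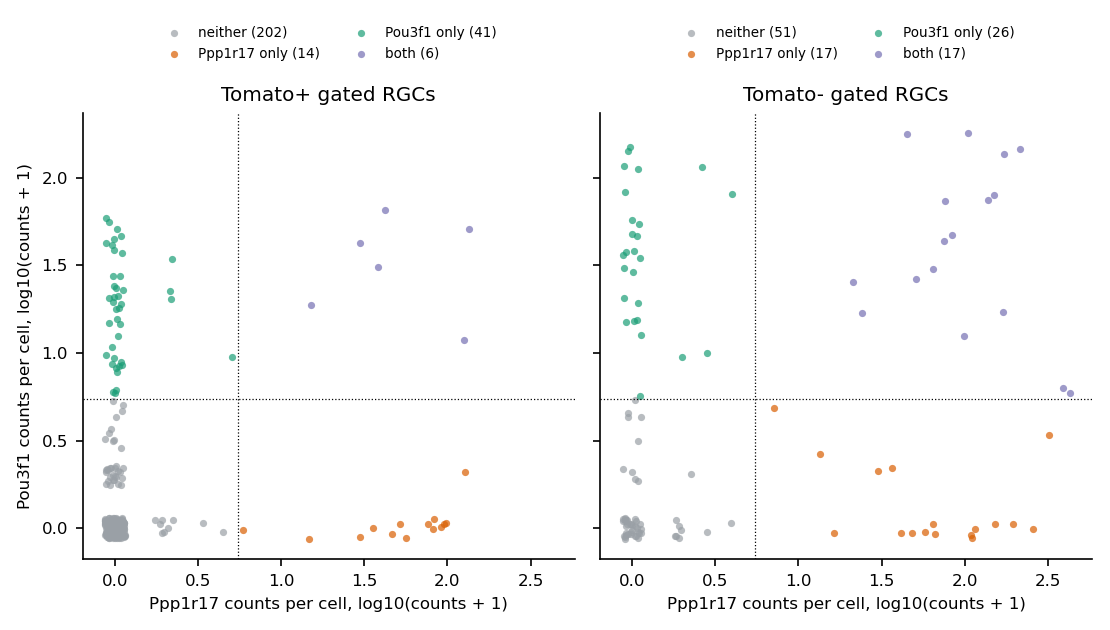
Counts of Ppp1r17 (x axis) and Pou3f1 (y axis) in each gated RGC, as log10(counts + 1), in Tomato+ (left) and Tomato- cells (right). Each point is a cell, colours give the subset and dotted lines mark the threshold of 5 counts. Tomato+ cells with both genes numbered 6 and Tomato- cells with both genes 17.

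Neither gene was limited to gated RGCs. Among the kept Tomato- progenitors (20 or more counts of Fgf15 or Hes1, and fewer than 5 of each Pou4f gene), 5.76% reached 5 counts of Ppp1r17 and 22.3% reached 5 counts of Pou3f1. Median depth there was 232776 counts, lower than in the gated cells. Cells were then thinned to 94783 counts, which left out 10 Tomato+ and 3 Tomato- gated cells and 10 progenitors with fewer. Shares with 5 or more counts of Ppp1r17 were 7.11% in Tomato+ RGCs, 26.9% in Tomato- RGCs and 5.43% in the progenitors. For Pou3f1 they were 12.3%, 30.6% and 17.8%. The Tomato+ RGC share of Pou3f1 was thus below that of the progenitors at equal depth, and the Tomato- RGC share was above it.

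The RGC label was checked with 16 markers outside the rule. In each label, 13 of them reached 5 counts in at least 20% of members. The 16 together ran from 17227 to 38938 CPM per cell in Tomato+ members and from 2539 to 38229 CPM in Tomato- members. Isl1, a LIM-homeodomain factor that acts with Pou4f2 in RGCs, reached 5 counts in all Tomato+ members and in 96.7% of Tomato- members. Gap43, Stmn2 and Tubb3, which are genes of growing axons and neuronal microtubules, did so in all members of both labels. Of 16 RGC markers, 13 had enough signal to compare and 0 differed by 2-fold between members and other RGCs in either label. Over all genes compared, 0.473% were at least 2-fold higher and 0.766% at least 2-fold lower in Tomato+ members, and 3.45% and 4.01% in Tomato- members, so a count of 0 among 13 is near that background. The median log2 ratio of these 13 was -0.03 in Tomato+ and 0.16 in Tomato- cells. Mki67, a gene of cycling cells, reached 5 counts in 1 of 61 Tomato+ and 14 of 60 Tomato- members.

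Members made up a larger share of the gated RGCs in Tomato- than in Tomato+ cells. The 61 Tomato+ members were 23.2% of the Tomato+ gated cells (exact Clopper-Pearson 95% interval 18.2% to 28.8%). The 60 Tomato- members were 54.1% of theirs (44.3% to 63.6%). These intervals cover counting error alone. By title number the share lay between 12.9% and 47.4% in Tomato+ cells (median 21.7%, SD 11.6, n = 10), while Tomato- cells spanned 22.2% to 72.7% (median 53.7%, SD 14.8, n = 10). The ranges overlapped through 2 title numbers at their ends, number 10 with 9 members of 19 gated cells and number 13 with 2 of 9. Without title numbers 8 and 10 the Tomato+ share was 21.8%. With the threshold for membership at 1 count the shares were 39.2% and 70.3%. How much of the difference comes from the sort itself was not tested.

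**Figure D2:**
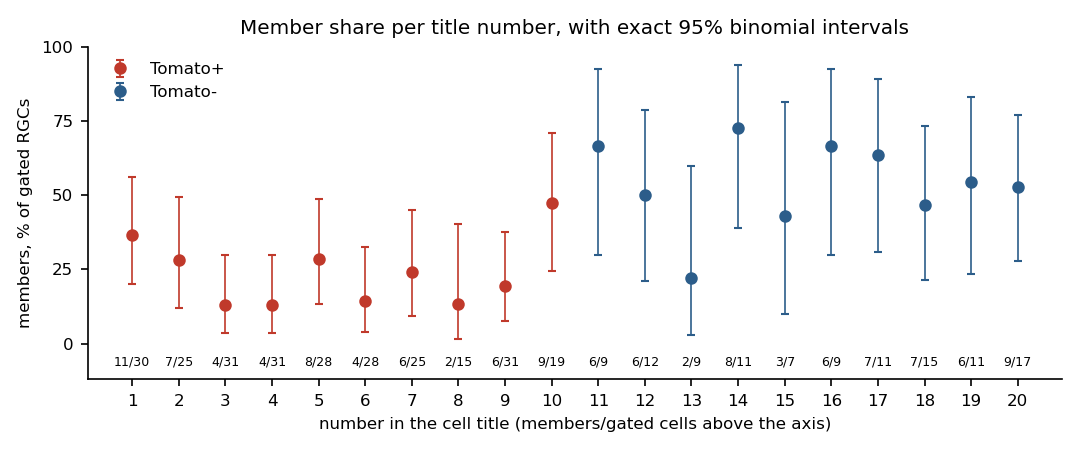
Share of gated RGCs that were members (y axis, percent) for each title number (x axis), with exact 95% intervals and members of gated cells printed for each. Title numbers 1 to 10 are Tomato+ and 11 to 20 Tomato- cells. Tomato+ values lie between 12.9% and 47.4% and Tomato- values between 22.2% and 72.7%.

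Most members had only 1 of the defining genes. In Tomato+ members 14 cells had Ppp1r17 only, 41 had Pou3f1 only and 6 had both. In Tomato- members these numbers were 17, 26 and 17. Pou3f1 was present in 6 of 20 Tomato+ cells with Ppp1r17 (exact 95% interval 11.9% to 54.3%) and in 16.9% of those without it (12.4% to 22.2%). In Tomato- cells it was present in 17 of 34 with Ppp1r17 (32.4% to 67.6%) and in 26 of 77 without it (33.8%, 23.4% to 45.4%). The share was higher in cells with Ppp1r17 in both labels, and the intervals overlapped in both. Overlap of intervals is not a test, and an association between the genes was not tested.

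Members had members among their nearest neighbours about as often as their frequency, when 1000 variable genes outside the rule were used. Among the 15 nearest neighbours of a Tomato+ member, 23.3% were members (SD 5.34 over title numbers), beside 22.9% of the other gated cells and 21.8% of the neighbours of other RGCs. In Tomato- cells the values were 54.6% (SD 8.47), 53.6% and 46.4%. With a Pou4f threshold of 1 count, Tomato- members had 50.8% member neighbours against a frequency of 42.04%. Without title number 10, Tomato+ members had 27.8% against 20.99%. Cells with both genes had neighbours of their own subset more often than its frequency. The values were 6.67% (SD 4.71) against 1.91% for the 6 Tomato+ cells and 25.5% (SD 10.4) against 14.5% for Tomato- cells. Cells with Ppp1r17 had 13% (SD 6.41) against 7.25% and 36.7% (SD 9.04) against 30% in these labels. For cells with Pou3f1 the values were 15.6% against 17.6% and 37.8% against 38.2%. When the variable genes were picked by dispersion, an alternative chosen after seeing the data, Tomato- members had 70.2% and Tomato+ members 27.7% of member neighbours, at the same frequencies. Cells with Pou3f1 then had 59.1% neighbours of their own subset in Tomato- and 21.3% in Tomato+ cells, also at the same frequencies. The share among Tomato- members thus moved with the genes and cells that entered.

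Cntn2 was higher in the members than in the other RGCs in both labels, with the larger ratio in Tomato- cells. It encodes contactin-2 (TAG-1), a membrane-anchored immunoglobulin adhesion protein of growing axons, and lies at chr1:132509427-132543256 on the minus strand. Together with Igfbp5 it was named as a marker of this group from earlier results on these cells, so its direction is not independent evidence. In Tomato- members Cntn2 ran from 0 to 3206 CPM per cell with a median of 338.1, and in the other Tomato- RGCs from 0 to 4079 with a median of 4.63. It reached 5 counts in 52 of 60 members (86.7%) and in 21 of 51 other RGCs (41.2%). Most Tomato- members thus carried Cntn2, while the full ranges overlapped. Summed levels were 464 and 133.997 CPM, a log2 ratio of 1.72 (SD 1.21 over 10 title numbers), with members higher in 8 of 10. All log2 ratios here are of summed CPM after adding 10 CPM to each side.

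In Tomato+ members Cntn2 ran from 0 to 723 CPM with a median of 7.25, and in the other Tomato+ RGCs from 0 to 1141 with a median of 2.40. It reached 5 counts in 28 members (45.9%) and 68 other RGCs (33.7%). Summed levels were 91.9 CPM (exact Poisson 95% interval 87.6 to 96.4) and 54.5 CPM (52.6 to 56.5). The log2 ratio was 0.66 with an SD of 0.85 over title numbers, so the difference lay within that spread, although members were higher in 8 of 10. Without title numbers 8 and 10 it was 0.75. The Poisson intervals take counts as independent and are narrow beside the differences between cells.

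The cells with both defining genes held the highest Cntn2. In Tomato- cells the summed level was 138.2 CPM with Ppp1r17 only, 419 with Pou3f1 only, 796 with both and 133.997 with neither. In Tomato+ cells it was 56.1, 82.3, 227.4 and 54.5 CPM in that order. Cells with Ppp1r17 only were thus close to cells with neither gene, in both labels. All 17 Tomato- and 5 of the 6 Tomato+ cells with both genes reached 5 counts of Cntn2.

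Igfbp5 had a larger ratio than Cntn2 in Tomato- cells, from a minority of strongly expressing cells. It encodes a secreted protein that binds insulin-like growth factors and lies at chr1:72857932-72874884 on the minus strand. Tomato- members ran from 0 to 3663 CPM with a median of 15.3, and the other Tomato- RGCs from 0 to 1682 with a median of 0. It reached 5 counts in 30 of the 60 members and 5 of the 51 other RGCs (9.80%). The summed levels of 254.1 and 10.2 CPM gave a log2 ratio of 3.71 with an SD of 2.80, higher in 8 of 10 title numbers. With each cell weighted equally the ratio was 2.54, and with a Pou4f threshold of 1 count it was 2.41. Members were higher under each of these settings, and the size moved with them.

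In Tomato+ cells Igfbp5 was sparse. Members ran from 0 to 1317 CPM and the other RGCs from 0 to 1891, with a median of 0 on both sides. It reached 5 counts in 12 members (19.7%) and 22 other RGCs (10.9%), just under the 20% of cells required of a gene in the comparison across genes. The levels of 81.4 and 27.4 CPM gave a log2 ratio of 1.29 with an SD of 1.67, higher in 7 of 10 title numbers and within that spread. Without the cell with most Igfbp5 the ratio was 0.91. With members defined by Ppp1r17 alone, which keeps the cells with both genes, the ratio over cells with neither gene was 2.29. By subset the Tomato+ levels were 39.6 CPM with Ppp1r17 only, of which 1 cell gave 98.3%, 33.9 with Pou3f1 only and 461 with both. In Tomato- cells they were 82.1, 308.6 and 337.4 CPM, so there the Pou3f1-only cells were high as well.

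**Figure D3:**
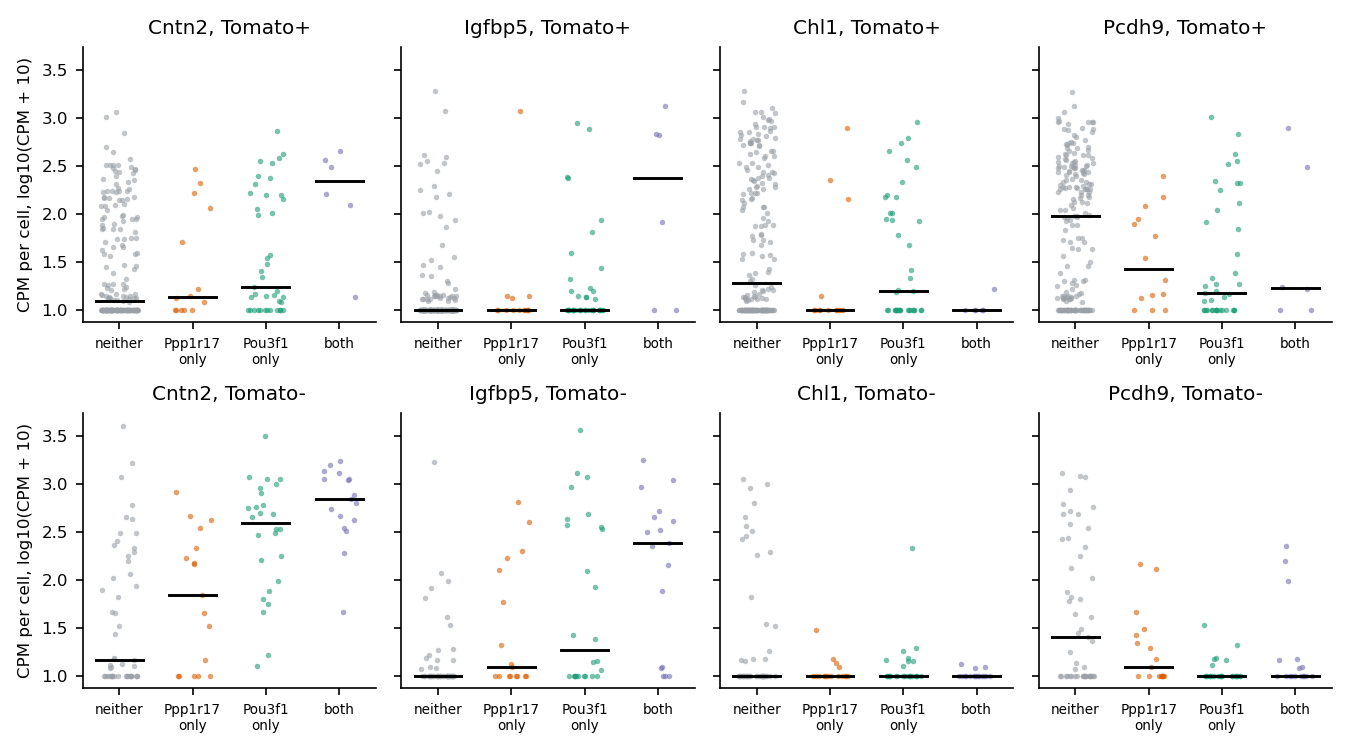
Level of Cntn2, Igfbp5, Chl1 and Pcdh9 in each gated RGC (y axis, log10 of CPM + 10) by subset and label (x axis), with black bars at the medians. Each point is a cell. Cntn2 medians are highest in cells with both genes, at 225.3 CPM (Tomato+) and 686 CPM (Tomato-), and every subset overlaps the cells with neither gene.

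Chl1 and Pcdh9 went the other way, most clearly in Tomato- members. Chl1 encodes the close homologue of L1, an immunoglobulin adhesion protein of axons like contactin-2 (chr6:103510586-103750211, plus strand). Pcdh9 encodes a protocadherin (chr14:93013410-93890679, minus strand). Chl1 reached 5 counts in 2 of 60 Tomato- members (3.33%) and 13 of 51 other RGCs (25.5%), with highest values of 207.3 and 1112 CPM and medians of 0. Summed levels were 8.62 and 144.6 CPM, a log2 ratio of -3.05 with an SD of 2.14. In Tomato+ cells the levels were 92.5 and 194.3 CPM, with a ratio of -0.996 and an SD of 1.42. Members were higher in 2 of 10 title numbers in each label. The Chl1 difference exceeded the spread in Tomato- but not in Tomato+ cells.

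Pcdh9 ran from 0 to 217.6 CPM in Tomato- members and from 0 to 1284 in the other RGCs, with medians of 0 and 15.46. The summed levels of 14.96 and 203.8 CPM gave a log2 ratio of -3.10 with an SD of 1.74, and members were higher in 0 of 10 title numbers. In Tomato+ cells the medians were 6.44 and 85.7 CPM and the summed levels 95.1 and 185.003 CPM. That log2 ratio was -0.89 with an SD of 1.59, higher in 2 of 10. Pcdh9 was thus lower in members in every Tomato- title number and lay within the spread in Tomato+ cells. In cells with both genes Chl1 was at 0.993 CPM (Tomato+) and 0.469 CPM (Tomato-), while Pcdh9 in Tomato+ cells with both genes was at 188.2 CPM, of which 1 cell gave 64.4%.

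The comparison of members with other RGCs was then run across all genes. A gene was compared where 5 or more counts were found in at least 20% of the cells of either side. In Tomato+ cells 29 of 6135 genes (0.473%) were at least 2-fold higher and 47 (0.766%) at least 2-fold lower in members. In Tomato- cells 3.45% of 5907 genes were higher and 4.01% lower. The median log2 ratio of all genes was 0.02 and 0.01. The sides in Tomato- cells hold 60 and 51 cells while the other RGCs outnumber the members in Tomato+ cells, and a sum over fewer cells scatters more, so the shares of the labels were not compared. The Tomato+ shares are small, and the share of genes higher rose whichever title number was left out, to between 0.605% and 0.826%. The share of genes higher was 0.758% without title number 1, 0.719% without 2, 0.754% without 3, 0.728% without 7, 0.826% without 9 and 0.769% without 10, and the share lower was 1.48% without title number 5. Without both 8 and 10 they were 0.935% and 1.091%.

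Few genes met the 2-fold mark in both labels. Of 5475 genes compared in both, Tub and Rassf4 were higher and Cdr1, Clu, Rora and 2900055J20Rik lower by 2-fold in both. Across those genes the ratios of the labels had a Pearson r of 0.0836 and a Spearman rho of 0.0801, and 53.97% had the same sign. The genes share their libraries and are not independent, so this is a description. At the 2-fold mark, 6 genes thus went the same way in both labels, and 4 others (Rgs4, Kdm4c, Cirh1a and Trmt10c) went opposite ways.

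**Figure D4:**
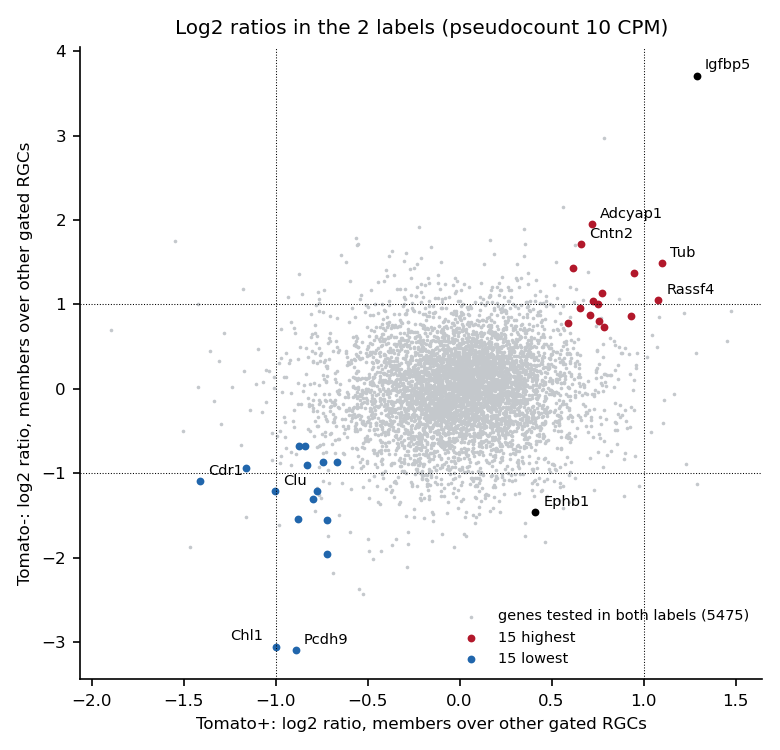
Log2 ratio of members over other gated RGCs in Tomato+ (x axis) and Tomato- cells (y axis) for the 5475 genes compared in both labels, with dotted lines at 2-fold. Red and blue points are the 15 genes ranked highest and lowest, and black points are Igfbp5, which was too sparse in Tomato+ cells to be compared, and Ephb1. Chl1 and Pcdh9 lie near -3 in Tomato- cells only.

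In both labels, 90 genes were higher in members with a share of cells that differed by at least 10 percentage points. The 15 genes ranked highest were the top of these by the smaller ratio of the 2 labels. They held 2 genes past 2-fold in Tomato+ and 9 in Tomato- cells, and Cntn2 was among them. Tub, which encodes the tubby protein of neurons, had levels of 118.8 and 50.1 CPM in Tomato+ members and other RGCs, and of 188.03 and 60.6 CPM in the Tomato- sets. Its log2 ratios were 1.10 and 1.49, and members were higher in 8 of 10 Tomato+ and 10 of 10 Tomato- title numbers. Per cell, Tub medians were 37.1 and 5.09 CPM under Tomato+, and 101.8 and 6.58 CPM under Tomato-. Highest values ran from 693 to 1082 CPM over the 4 sets of cells, so the ranges overlapped.

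Several other ranked genes encode signalling proteins. Rassf4, a Ras-association domain gene, stood at 174.4 against 77.4 CPM (Tomato+) and 388.3 against 182.1 CPM (Tomato-), with ratios of 1.08 and 1.05. Akap7, an anchor of protein kinase A, had ratios of 0.95 and 1.37 and was higher in 9 of 10 title numbers of each label. Adcyap1, which encodes the neuropeptide PACAP, was at 36.5 against 18.2 CPM (Tomato+) and 64.7 against 9.31 CPM (Tomato-). It reached 5 counts in 22 of 60 Tomato- members and 4 of 51 other RGCs, and its ratios were 0.72 and 1.95. The adhesion receptor gene Adgrg1 had ratios of 0.62 and 1.43. Igfbp2, a relative of Igfbp5, was at 44.3 against 22.1 CPM (Tomato+) and 80.96 against 42.2 CPM (Tomato-), higher in 8 of 10 title numbers of each. The 2 Igfbp genes differed in kind, since Igfbp2 was found at 5 counts in 57.4% and 63.3% of members at low levels and Igfbp5 in fewer cells at high levels.

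The remaining ranked genes higher in members had general cell functions. Timm50, of the mitochondrial import machinery, had ratios of 0.78 and 0.74, Mcm7, of the replicative helicase, 0.93 and 0.86, and the importin gene Ipo5 0.77 and 1.13. Kdm3a, a histone demethylase gene, Vprbp, Slco5a1, Zfp281 and Eif4e3 lay between 0.59 and 0.75 in Tomato+ and between 0.78 and 1.04 in Tomato- cells. Of the 15 genes, the ratio exceeded the SD over title numbers in 3 in each label. These were ranked by the ratios themselves and are given as a description.

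The 15 genes ranked lowest, out of 57 lower genes that met the same criteria, included genes of the neuronal membrane and of transmission. A background share was not computed for this count either. Gabbr2, of the GABA-B receptor, had log2 ratios of -0.78 and -1.21. Atp8a1, a phospholipid flippase gene, was at -0.72 and -1.95, and Syt16, of the synaptotagmin family, at -0.80 and -1.31. Lingo1, which encodes a co-receptor of the Nogo receptor, was at -0.84 and -0.68, and Nav1, a neuron navigator gene, at -0.87 and -0.68. A lower share of cells with 5 counts in members of both labels was a condition of this ranking and is not a separate result.

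Clu had the same direction over title numbers in both labels, and its ratio exceeded the SD in Tomato+ cells only. It encodes clusterin, a secreted chaperone. Levels in members and other RGCs were 49.2 and 108.8 CPM under Tomato+, and 15.7 and 49.6 CPM under Tomato-, with ratios of -1.005 and -1.21. Members were higher in 0 of 10 title numbers of either label, while the highest single values were 475 and 4014 CPM under Tomato+, and 286.3 and 424 CPM under Tomato-. Scube3, which encodes a secreted protein, was higher in 0 of 10 Tomato+ and 2 of 10 Tomato- title numbers with ratios of -0.88 and -1.54. Cdr1 had ratios of -1.41 and -1.09, but reads there cannot be assigned between the strands of that locus without knowing how strand was counted. Mast4 had ratios of -0.72 and -1.55, and with membership at 1 count its Tomato- ratio was 0.47. Spns1, Phf2 and Abhd10 completed the list. The ratio exceeded the SD in 1 of the 15 genes in Tomato+ and 3 in Tomato- cells.

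**Figure D5:**
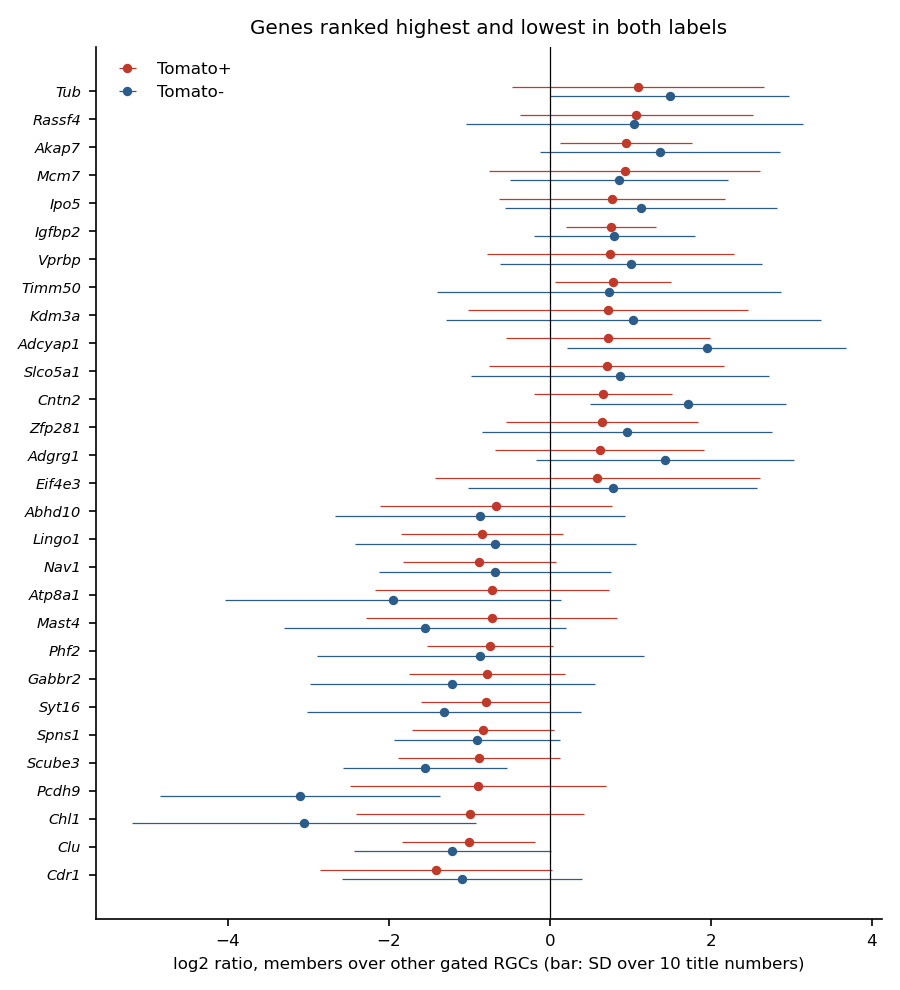
Log2 ratio of members over other gated RGCs (x axis) for the 15 genes ranked highest and 14 of the 15 ranked lowest (y axis), in Tomato+ (red) and Tomato- cells (blue). Points are ratios of summed CPM and bars are the SD over 10 title numbers. Most bars cross 0. Those of Pcdh9, Chl1, Scube3, Cntn2, Adcyap1 and, by a small margin, Tub lie clear of it in Tomato- cells, and those of Akap7, Igfbp2, Timm50 and Clu in Tomato+ cells.

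The gene lists that follow are read against the shares of all genes past 2-fold, 0.473% higher and 0.766% lower in Tomato+ members and 3.45% and 4.01% in Tomato- members. A list with 0 genes past 2-fold is near that background and shows nothing particular to the list. More genes past 2-fold in Tomato- than in Tomato+ members also go with the larger shares of all genes there. Some list shares lay above the background, such as 2 of 6 cadherins and protocadherins lower in Tomato- members. They rest on few genes and were not tested. Of 8 other POU genes outside the rule, 3 in Tomato+ and 4 in Tomato- cells had enough signal to compare and 0 passed 2-fold. Pou2f2 had ratios of -0.22 and 0.33 and Pou3f2, a close relative of Pou3f1, -0.03 and 0.76. Pou3f4 had a Tomato- ratio of 1.36, to which 1 cell of title number 13 gave 96.1% of the counts. Without that title number it was -0.13. Pou4f2, which the gate used, stood at 221.1 CPM in Tomato- members and 115.1 CPM in the other RGCs.

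Of the insulin-like growth factor genes, 5 of 17 in Tomato+ and 6 of 17 in Tomato- cells could be compared, with median ratios of -0.19 and 0.23. Igfbp5 was the only one at least 2-fold higher, in Tomato- cells. Igf1, a ligand, was 2-fold lower in Tomato- members, at 41.6 against 110 CPM, and stood at 270.5 against 291.2 CPM in Tomato+ cells. The receptor gene Igf1r was close on both sides, with ratios of -0.19 and -0.12, and Insr had -0.38 and 0.48. Irs4 and Igfbp6 had 0 counts in members and other RGCs, where 3 counts would have been 0.161 CPM (Tomato+ members) and 0.155 CPM (Tomato- members).

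Of the genes of uncrossed axons, Ephb1, Slc6a4, Igf1 and Zic5 differed more between the members of the labels than within a label. Slc6a4 also drives the Cre behind the label. Ephb1, the guidance receptor of uncrossed RGC axons, was at 196.9 CPM in Tomato+ members and 145.5 CPM in the other Tomato+ RGCs, a ratio of 0.41. In Tomato- cells it was at 9.80 and 44.5 CPM, a ratio of -1.46. Zic5 had ratios of 0.64 and -0.22, Slc6a4 0.44 and 0.12, and Zic1 -0.23 and 0.64. Zic2 was at 2.74 and 4.85 CPM in Tomato+ and Tomato- members, and Boc had 0 counts in both. Of the 7 genes, 4 and 2 could be compared, with median ratios of 0.43 and -1.34, and Ephb1 and Igf1 were the 2 genes lower in Tomato- members. Of 5 genes of crossed axons, Igfbp5 was 2-fold higher in Tomato- members, and Isl2 (0.59 and 0.53), Nrp1 (0.20 and 0.44), Nrcam (-0.21 and 0.04) and Plxna1 (-0.12 and 0.17) stayed under 2-fold. Whether the labels differ in these ratios was not tested.

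Among 25 genes of axonal immunoglobulin adhesion, 13 could be compared in each label, with medians of -0.21 and -0.55. In Tomato- members Cntn2 was 2-fold higher and Chl1 and Cntnap2 lower, and 0 passed 2-fold in Tomato+ members. Cntnap2, a neurexin-family partner of contactin-2, was at 78.3 and 204.2 CPM in Tomato- members and other RGCs. Of 52 axon guidance genes, 24 and 22 could be compared, with medians of 0.13 and 0.04. The ligand gene Slit2 (147.6 against 67.2 CPM) and the netrin receptor gene Dcc (104.6 against 46.4 CPM) were higher and Ephb1 lower in Tomato- members. Among cadherins and protocadherins, 7 and 6 of 23 could be compared, and Cdh4 and Pcdh9 were lower in Tomato- members.

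Transmitter receptor genes had the lowest list medians that rested on 9 genes or more, at -0.34 in Tomato+ (9 of 30 compared) and -0.74 in Tomato- members (10 of 30). In Tomato- members Gria1, a glutamate receptor subunit gene, was lower (0.619 against 30.1 CPM), while Chrnb4, a nicotinic receptor subunit gene, was higher (67.96 against 13.8 CPM). Synaptic vesicle genes had medians of -0.14 and -0.25 over 20 and 19 of 25 genes, with Rab3c lower in Tomato+ and Nrxn3 lower in Tomato- members. Ion channel genes had medians of -0.09 and -0.18 (12 and 9 of 25), with Cacna2d1 higher in Tomato- members. Growth cone and cytoskeleton genes, 22 of 23 in each label, had medians of -0.03 and -0.01 and 0 past 2-fold. Neuropeptide and transmitter transport genes (7 and 5 of 16) had medians of 0.15 and 0.32, with Adcyap1 higher in Tomato- members.

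Among 37 factors of RGC subtype and maturation, 21 could be compared in each label, with medians of -0.03 and 0.06. Lmo2 was 2-fold lower in Tomato+ members, at 35.03 against 91.8 CPM. In Tomato- members Satb1 was higher (155.5 against 65.1 CPM), and Onecut1 (12.7 against 44.9 CPM) and Myt1l (95.98 against 352.5 CPM) were lower. Myt1l, a neuronal zinc finger factor, was higher in 0 of 10 Tomato- title numbers. Genes for retinal position had 0 past 2-fold in Tomato+ members and Hmx1, a nasal factor, higher in Tomato- members (90.4 against 38.4 CPM). The dorsal and ventral list medians were 0.13 and 0.02 in Tomato+ and 0.34 and -0.24 in Tomato- cells, over 1 and 2 genes. The nasal medians were 0.14 and -0.11 and the temporal medians 0.14 and 0.20, over 1 to 3 genes.

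Genes related to the biochemistry of Ppp1r17 were looked at next. Of 20 genes for protein phosphatases 1 and 2A and cGMP kinase, 13 and 14 could be compared and 0 passed 2-fold, with medians of -0.04 and -0.08. Of 17 retinoid genes, 4 could be compared in each label, with medians of -0.12 and -0.08. Crabp2 was higher in Tomato- members, where 1 cell gave 38.3% of its counts. Genes raised by tissue dissociation had medians of 0.39 and -0.03 over 4 and 5 of 14 genes and 0 past 2-fold.

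Markers of other retinal cell types were also found in members, at levels that differed by type. Of 10 progenitor markers, 1 could be compared in Tomato+ and 4 in Tomato- cells, with Top2a lower in Tomato- members. The summed progenitor level per cell ran from 0 to 532 CPM (median 16.8) in Tomato+ members and from 0 to 4708 (median 103.6) in Tomato- members, against medians of 11.5 and 131.4 in the other RGCs. Neurogenic precursor markers summed to medians of 63.997 and 334.9 CPM in members and 33.6 and 148.9 CPM in the other RGCs, so these medians were higher in members of both labels, with 0 genes past 2-fold among 1 and 3 compared. Amacrine markers (1 compared in each label) and photoreceptor markers (1 and 2 compared) had 0 past 2-fold, with member medians of 2.83 and 3.04 CPM and of 24.2 and 59.9 CPM per cell. Horizontal cell markers had Onecut1 lower in Tomato- members, with member medians of 553 and 233.5 CPM against 452 and 400.2 CPM. Microglia, endothelial, optic stalk and erythroid markers had 0 genes with enough signal. Of the other Tomato+ RGCs, 3 held 100 or more counts of Hbb-y, an embryonic globin gene, and 0 members did. The part of these cell types in the ratios was not tested.

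Cells with Ppp1r17 only and cells with Pou3f1 only were set side by side. Pou4f3, the third Pou4f gene, reached 5 counts in 6 of 14 Tomato+ (42.9%, exact 95% interval 17.7% to 71.1%) and 4 of 17 Tomato- (23.5%, 6.81% to 49.9%) cells with Ppp1r17 only. In cells with Pou3f1 only it did so in 2 of 41 (4.88%, 0.596% to 16.5%) and 1 of 26 (3.85%, 0.0973% to 19.6%). Isl2, a LIM-homeodomain gene of crossed axons, was present in 42.9% and 29.4% of Ppp1r17-only and 7.32% and 23.1% of Pou3f1-only cells. The Pou4f3 intervals did not overlap in Tomato+ cells and overlapped in Tomato- cells, and those of Isl2 overlapped in both labels. In Tomato+ cells, Pou3f1-only cells held more Slc6a4 (196.3 CPM) than Ppp1r17-only cells (36.1 CPM), cells with both (13.9 CPM) or neither (100.1 CPM). Ephb1 was at 237.1, 166.3, 18.9 and 145.5 CPM and Zic5 at 133.9, 20.7, 75.5 and 61.1 CPM in the same order. Isl1 was highest in Tomato- cells with both genes, at 2170.1 CPM against 999.9 CPM with neither. These genes were picked for description after their values were seen.

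Tomato+ and Tomato- members were also set against each other. Of 6212 genes compared between the members of the labels, 3.91% were at least 2-fold higher and 3.46% at least 2-fold lower in Tomato+ members. The 5 highest included Slc6a4, at 139.2 CPM in Tomato+ members against 1.08 CPM in Tomato- members (log2 ratio 3.75), which drives the Cre that labels the cells. Ephb1 followed with 196.9 and 9.80 CPM (3.39), then the intermediate filament gene Synm (2.72), Chl1 (2.46) and Igf1 (2.44). Slc6a4 reached 5 counts in 27 of 61 Tomato+ members and 1 of 60 Tomato- members. Slc6a4 and Ephb1, both genes of uncrossed axons, thus led the genes higher in Tomato+ members.

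The 5 lowest in Tomato+ members were Mki67 (-3.29), Ccnd1 (-2.37), Cntn2 (-2.22), the G-protein subunit gene Gng4 (-2.22) and the growth factor gene Mdk (-2.10). Mki67 and Ccnd1 are genes of cycling cells and Mdk is abundant in progenitors. Mki67 was at 1.504 and 102.3 CPM and Ccnd1 at 6.61 and 75.9 CPM, against 1601 and 2089.8 CPM in the Tomato- progenitors. Within Tomato- gated cells, Mki67 was at 122.8 CPM and Ccnd1 at 76.96 CPM in the other RGCs. Of the Mki67 counts in members of both labels, 1 Tomato- cell gave 30.98%, and without it the log2 ratio between labels was -2.83. The part of these genes' source cells in the other differences was not tested. Gng4 was higher in Tomato- members (89.7 CPM) than in the other Tomato- RGCs (14.02 CPM), with a ratio of 2.05, and stood at 11.4 and 17.5 CPM in Tomato+ cells. Igfbp5 was lower in Tomato+ than in Tomato- members by a log2 ratio of -1.53.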

How the data were processed

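Single-cell RNA-seq libraries (SmartSeq2, per the labels' protocols) of 800 cells were deposited as 1 table of whole-number counts per gene and cell. Its headers end in "umi", and whether the counts are molecules or reads is not given in the sources used here. Seurat 2.3, R 3.4.4 and mm10 are named per the submitters' processing notes. The aligner and annotation are not given in the sources used here. Of the columns, 1 matched no labelled cell and was left out. Filtering removed 73 Tomato+ and 38 Tomato- cells, and 0 cell columns were identical. The gate held 263 Tomato+ and 111 Tomato- cells, of which 202 and 51 were other RGCs, and 139 Tomato- cells were progenitors. In counts, 204 genes were higher and 237 lower in Tomato- members, and 243 were higher and 215 lower in Tomato+ than in Tomato- members.

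Counts were summed over cells, scaled to CPM and compared as log2((members + 10)/(others + 10)). Shares have exact Clopper-Pearson and sums exact Poisson 95% intervals. Title-number ratios needed 2 cells per side. No doublet caller was run. Neighbours used 1000 variable genes and 15 principal components. Tools were Python 3.11.15, numpy 2.4.6, scipy 1.17.1, pandas 2.3.3, scanpy 1.11.5 and matplotlib 3.10.9, with TMM factors from edgeR 4.0.16 and size factors from DESeq2 1.42.0 (R 4.3.3) as alternatives. The script was tested on simulated data. Gene positions are from GENCODE for GRCm38.

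Named genes were the 4 markers, the 15 highest and 15 lowest by the smaller ratio of both labels, listed genes past 2-fold in both labels with any member of the POU, insulin-like growth factor and projection lists, and the 5 highest and lowest between labels. Members and lists were chosen with earlier results of these data known, and some genes were added after their values were seen. Values of 3 genes that these rules name are not reported here.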

Additional observations from a re-analysis of the deposited data

Results flagged for a closer look

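Of the 5475 genes compared in both labels, 4 were at least 2-fold higher in members of 1 label and at least 2-fold lower in members of the other. Rgs4, a regulator of G-protein signalling, had a log2 ratio of -1.55 in Tomato+ cells (51.9 CPM in members, 171.1 in other RGCs) and 1.75 in Tomato- cells (199.4 and 52.3 CPM). Members were higher in 2 of 10 Tomato+ and 8 of 10 Tomato- title numbers. Kdm4c, a histone demethylase gene, had -1.42 (5.16 and 30.6 CPM) and 1.01 (41.5 and 15.6 CPM), with members higher in 0 of 10 and 8 of 10 title numbers. Cirh1a had -1.18 (14.5 and 45.2 CPM) and 1.18 (48.5 and 15.7 CPM). Trmt10c, of mitochondrial tRNA processing, had 1.29 (55.1 and 16.6 CPM) and -1.13 (16.9 and 48.9 CPM). The difference between the labels was not tested for any of them, since each label is 1 sample. The member share and the ratios of Cntn2, Igfbp5, Chl1 and Pcdh9 were also followed over the 10 title numbers of each label, 10 measures in all, and no single title number passed Dixon's 95% critical value in them. Depth and mitochondrial share were not among these measures.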

How the results depend on the processing

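No paired analysis was possible because no result comes from a test and the labels share no title number. Within a label, members and other RGCs share title numbers, and the SDs come from the ratios within each. The share of compared genes past 2-fold moved with cell numbers and thresholds, and the cause was not tested. For genes higher in Tomato+ members (0.473%), it was 0.906% with a Pou4f threshold of 20, 0.309% and 0.894% with membership at 1 and 10 counts, 1.0006% by Pou3f1 alone, 3.13% by Ppp1r17 alone, 1.53% with a pseudocount of 1 CPM, 0.7101% after thinning and 0.935% without title numbers 8 and 10. For genes lower (0.766%), it was 1.16%, 0.374%, 1.197%, 1.404%, 5.65% and 2.17% under the first 6 of these settings. For genes higher in Tomato- members (3.45%), it was 6.03% with the pseudocount, and for genes lower (4.01%) it was 2.404% with a Pou4f threshold of 1, 6.11% by Pou3f1 alone, 6.28% with a mitochondrial limit of 10% and 6.52% with the pseudocount. Between the members of the labels, the share higher (3.91%) became 2.301% with membership at 1 count, 6.93% by Pou3f1 alone, 8.42% by Ppp1r17 alone and 6.91% with the pseudocount, and the share lower (3.46%) became 1.907%, 9.36% by Ppp1r17 alone and 6.05%. With no filter on low counts, many more genes entered and the shares were 0.548% and 0.724% of 20984 genes (higher and lower, Tomato+), 3.13% and 3.93% of 18399 (Tomato-) and 2.903% and 3.24% of 18702 (between labels).

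The member share was 17.2% after thinning and 39.2% with membership at 1 count in Tomato+ cells, and 42.4% with a Pou4f threshold of 1 and 70.3% with membership at 1 count in Tomato- cells. The member share of neighbours was 39.9% and 70% with membership at 1 count, where members were 38.9% and 70% of the other gated cells, and 70.2% in Tomato- cells by dispersion, beside 53.6%. Mast4 (0.47) and Pcdh11x (0.99) changed sign in Tomato- cells with membership at 1 count, and Pou3f4 by Ppp1r17 alone (-0.11) and with the mitochondrial limit (-0.14).

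Leaving out 1 title number at a time, log2 ratios ran from 0.50 to 0.78 and from 1.46 to 2.01 for Cntn2 and from 0.96 to 1.45 and from 3.49 to 4.02 for Igfbp5 in Tomato+ and Tomato- cells, and from -0.13 (without number 13) to 1.57 for Pou3f4 in Tomato- cells. Shares of genes ran from 0.605% to 0.826% and from 0.748% to 1.48% (higher and lower, Tomato+, the former above the 0.473% with all cells each time), from 3.21% to 4.71% and from 4.17% to 5.59% (Tomato-), and from 3.85% to 4.93% and from 3.17% to 3.95% (between labels). Member shares ran from 21.3% to 24.6% and from 52% to 56.9%, and neighbour shares from 22.5% to 28.3% and from 52.2% to 58.6%. Cntn2 and Igfbp5 were higher in members of both labels under every setting run. Low counts limit the genes found in few cells.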

Other observations

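Genes that set Tomato- members apart from other Tomato- RGCs included several found in few cells. Sst, which encodes the neuropeptide somatostatin, had a log2 ratio of 2.35 in Tomato- cells (82.9 and 8.17 CPM), from 7 of 60 members with 5 or more counts. In the Ppp1r17-only cells 1 cell gave 91.5% of its counts. In Tomato+ cells the ratio was -0.42. Onecut3, a homeodomain factor, had a ratio of -2.53 in Tomato- cells (0.361 and 49.7 CPM) and -0.06 in Tomato+ cells. Epha6, an ephrin receptor gene, had -1.51 and 0.48. These genes were picked after their values were seen.

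Mfng, a Notch-pathway glycosyltransferase gene of neurogenic precursors, was under the detection filter in both labels but higher in members of both. It was at 14.9 and 0.127 CPM in Tomato+ (ratio 1.30) and 52.1 and 15.8 CPM in Tomato- members and other RGCs (ratio 1.27). It reached 5 counts in 5 of 61 Tomato+ and 10 of 60 Tomato- members. Among lower genes under the filter, Pcdh11x had ratios of -1.47 and -1.65 (0.99 in Tomato- cells with membership at 1 count), Cacna1e -1.18 and -1.34, and Grin3a -1.07 and -1.92. Each was found at 5 counts in at most 4 members of a label.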
